A study of Homo sapiens with 6 samples.

Results

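DNA repair and damage checkpoint genes were examined in A375 cells, an established human melanoma line, after knockdown of FAH, the enzyme that completes tyrosine breakdown. The genes were a list of 42 given by name, which was drawn up with earlier results of these data known. Of these, 39 were measured among the 18372 genes tested, each by 1 probe set, and BRCA2, FANCA and FANCD2 were not analysed here. The measured genes comprised 8 of homologous recombination, 8 of the Fanconi anemia pathway, 4 of mismatch repair, 6 of end joining, 7 of break sensing and checkpoint signaling, and 6 others that act in replication stress, base damage or ultraviolet damage. Several have roles in more than 1 pathway, and each was counted once: BRIP1 as a Fanconi anemia gene, EXO1 as a mismatch repair gene and POLQ as an end joining gene.

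The siFAH group was A375 cells transfected for 72 h with small interfering RNA against FAH, and the control group was A375 cells given a negative control siRNA for the same time. Each group had 3 biological replicates, with 1 Affymetrix Human Gene 1.0 ST array per replicate. All arrays came from this single line, and which of the study's siFAH sequences was used is not given in the labels. Signals are log2 values per probe set, so a negative difference is a lower signal in siFAH cells. Differences are siFAH minus control siRNA, and a gene was called lower or higher at an adjusted p under 0.05 (limma, adjusted over all 18372 genes).

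Cells repair a broken chromosome either by copying an intact sister strand, which is homologous recombination, or by rejoining the ends. The Fanconi anemia proteins unlink crosslinked strands ahead of a replication fork, and mismatch repair corrects bases that the replicative polymerases paired wrongly. ATM and ATR are the kinases that sense breaks and stalled forks, and they signal through CHEK2 and CHEK1 to hold the cell cycle. Many genes of recombination, mismatch repair and the Fanconi pathway are transcribed mainly in cycling cells, near and during S phase, and E2F factors are known regulators of several of them. In these bulk samples, fewer cells in S phase and less mRNA per cell cannot be told apart.

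Because such promoters are known for E2F sites, the letters TTTCCCGC, TTTGGCGC, TTTCGCGC and TTTGCCGC were searched on both strands in the RefSeq promoters of build GRCh38.p14, from 250 bases before to 50 bases after each start. Of the 39 measured genes, 33 had a promoter in the table. A site stood in 7 of them (21.2%), namely XRCC2, FANCC, MSH3, MSH6, PMS2, EXO1 and XRCC6. The same letters stood in 4.52% of the 14207 tested genes with a promoter and in 3.33% of all 27305 promoters. All 4 measured mismatch repair genes were among the 7. The 100 bases around the start are shown for the 6 of these genes whose site lies within 50 bases of it, on the gene's own strand, with the site in capitals.
XRCC2, chr7:152676092-152676191, minus strand: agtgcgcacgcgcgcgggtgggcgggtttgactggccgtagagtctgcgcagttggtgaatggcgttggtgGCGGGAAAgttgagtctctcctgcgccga
FANCC, chr9:95317660-95317759, minus strand: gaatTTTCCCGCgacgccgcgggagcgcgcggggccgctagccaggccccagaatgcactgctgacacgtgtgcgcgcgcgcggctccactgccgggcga
MSH6, chr2:47783095-47783194, plus strand: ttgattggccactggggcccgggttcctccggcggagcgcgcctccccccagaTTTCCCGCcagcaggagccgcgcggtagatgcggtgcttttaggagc
PMS2, chr7:6009057-6009156, minus strand: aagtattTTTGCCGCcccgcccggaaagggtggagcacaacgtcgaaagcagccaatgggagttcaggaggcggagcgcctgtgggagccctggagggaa
EXO1, chr1:241848154-241848253, plus strand: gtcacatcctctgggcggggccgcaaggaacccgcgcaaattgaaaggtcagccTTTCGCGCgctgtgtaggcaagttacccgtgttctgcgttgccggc
XRCC6, chr22:41621245-41621344, plus strand: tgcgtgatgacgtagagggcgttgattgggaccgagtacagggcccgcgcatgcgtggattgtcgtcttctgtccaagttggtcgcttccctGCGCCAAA
Counted from 1 at the first transcribed base, the site began at base 22 in XRCC2, base 5 in EXO1, base 4 in MSH6 and base 43 in XRCC6. In PMS2 it began 43 bases and in FANCC 46 bases before the start. The 7 genes with a site had a median log2 fold change of -0.187, of which EXO1 and XRCC2 were called lower, and the 26 genes without it had a median of -0.144, with 4 called lower. FANCI and PRKDC, which were also called lower, had no promoter in the table and are in neither count. Over all tested genes the medians were -0.0446 with the site, where 10.1% were called lower, and -0.000623 without it, where 6.78% were. The CCAAT box (CCAAT, either strand) stood in 51.5% of the 33 promoters and 36.3% of those of all tested genes, and the cell cycle homology region (TTTGAA or TTCGAA) in 12.1% and 13.3%. The difference between genes with and without these letters was not tested.

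FAH itself had log2 signals of 4.92, 4.60 and 4.92 on the siFAH arrays, against 5.48, 5.59 and 5.68 on the control arrays. Every siFAH array lay below every control array (log2 fold change -0.77, standard error 0.10, adjusted p = 0.00213).

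Repair and checkpoint genes were lower or not called after FAH knockdown, and none was higher. Of the 39, 8 were called lower (20.5%), where 6.38% of all genes tested were lower. They were EXO1, DDB2, XRCC2, XRCC4, PRKDC, FANCI, PARP1 and POLQ, and their log2 fold changes lay between -0.39 and -0.28. No member was called higher, where 3.48% of all genes were, and 31 were not called. Of the 39 differences 33 were negative and 6 positive, with a median of -0.179, against 0.00502 over all genes tested. The siFAH arrays lay wholly below the control arrays for 19 members, where this held for 18.6% of all genes, and wholly above them for 0, where this held for 13.4%.

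The called changes were 0.28 to 0.39 in size, where the median standard error of a member was 0.076. The 95% interval of the difference lay below 0 for 19 members and above 0 for none. This is the same result as 19 members lower and 0 higher at an unadjusted limma p under 0.05, from the same fit. At that limit 15.3% of all genes were lower and 10.8% higher. By the methods' t-test at the same limit 17 members were lower and 0 higher, where 12.8% of all genes were lower and 8.64% higher. A further 8 members, namely BRIP1, BRCA1, CHEK1, FANCM, RAD54L, BLM, MRE11 and RAD54B, had negative differences with adjusted p between 0.05 and 0.1. The study identified its changed genes with SAM and then applied limits of 1.2-fold and p under 0.05, without stating an adjustment. With those limits set on the fold and the unadjusted limma p, 9 members were lower, where 7.83% of all genes were, and 0 were higher, where 4.74% of all genes were. The 9 were the 8 named above and FANCM.

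**Figure D1:**
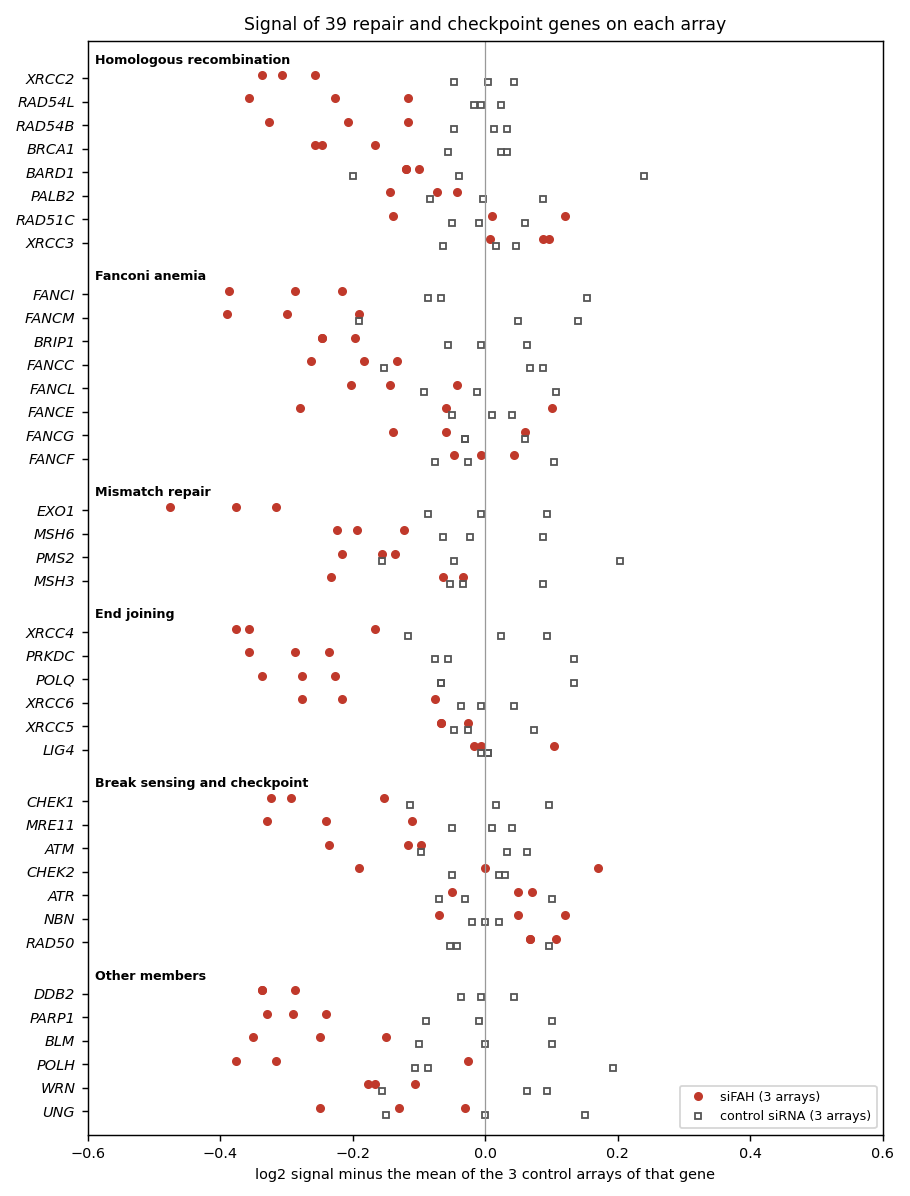
Log2 signal of each measured gene on each array minus the mean of that gene's 3 control arrays (horizontal axis), for siFAH arrays (red circles) and control siRNA arrays (open squares), grouped by pathway. The red circles lie wholly left of the squares for 19 of the 39 genes and wholly right of them for none.

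Of the homologous recombination genes, XRCC2 was lower and the other 7 measured genes were not called, where 6.38% of all genes were lower. XRCC2, which acts early in recombination on single-stranded DNA, had 6.83, 6.86 and 6.91 on the siFAH arrays, against 7.17, 7.12 and 7.21 on the control arrays. The groups stood clear of each other, with each siFAH array below the lowest control array. XRCC2 signal fell by 19.0% (log2 fold change -0.30, standard error 0.07, adjusted p = 0.0188). That call was lost without control siRNA replicate 2 (adjusted p = 0.0528), control siRNA replicate 3 (0.0554) or siFAH replicate 2 (0.0663).

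BRCA1, the ubiquitin ligase that promotes end resection and brings PALB2 to breaks, had 6.70, 6.61 and 6.62 on the siFAH arrays, against 6.89, 6.81 and 6.90 on the control arrays. Its groups did not overlap either, but the difference of -0.22 (standard error 0.07) had an adjusted p of 0.0617. RAD54L, a motor protein that drives strand exchange, had 5.94, 6.05 and 5.81 in siFAH cells, against 6.15, 6.16 and 6.19 in control cells. Its control arrays were nearly level and its siFAH arrays spread more widely (difference -0.23, adjusted p = 0.0768). The related RAD54B had 5.33, 5.54 and 5.45 in siFAH cells, against 5.61, 5.69 and 5.67 in control cells, again without overlap (-0.22, adjusted p = 0.0905).

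The 4 remaining recombination genes overlapped between groups. BARD1, the partner of BRCA1 in its ubiquitin ligase, had 5.28, 5.28 and 5.30 in siFAH cells, against 5.36, 5.20 and 5.64 in control cells. Its difference of -0.12 (adjusted p = 0.495) came with a control replicate 3 far above the other control arrays. PALB2, which links BRCA1 to BRCA2, had -0.09 (adjusted p = 0.485). RAD51C and XRCC3, which work together in 1 complex, had 0.00 and 0.06, and the 95% intervals ran from -0.18 to 0.18 for RAD51C and from -0.09 to 0.21 for XRCC3. XRCC2, which was lower, is not a subunit of that complex, but whether genes differed by complex was not tested. The median over the 8 genes was -0.169.

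In the Fanconi anemia pathway FANCI was lower and 7 measured genes were not called, where 6.38% of all genes were lower. FANCI, which forms with FANCD2 the clamp that is ubiquitinated at crosslinks, had 7.04, 6.97 and 6.87 on the siFAH arrays, against 7.17, 7.19 and 7.41 on the control arrays. The lowest control array stood above the highest siFAH array, and control replicate 3 was the highest of all. FANCI fell by 18.7% (log2 fold change -0.30, standard error 0.08, adjusted p = 0.0494). This value is at the edge of the threshold: it was 0.0708 after quantile normalization, 0.0825 after cyclic loess, and 0.0567 to 0.168 without siFAH replicate 1, 2 or 3 or control siRNA replicate 2 or 3.

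FANCM, the translocase that anchors the core complex to DNA, had 4.79, 4.99 and 4.88 in siFAH cells, against 4.99, 5.23 and 5.32 in control cells. The highest siFAH array and the lowest control array were alike to 2 decimals (difference -0.29, standard error 0.09, adjusted p = 0.0752). BRIP1, a helicase that binds BRCA1, had 5.95, 5.90 and 5.90 in siFAH cells, against 6.14, 6.09 and 6.21 in control cells. Its replicates were close within each group and did not overlap between them (-0.23, standard error 0.07, adjusted p = 0.0538).

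Subunits of the core complex, the ubiquitin ligase of this pathway, were not called. FANCC had 5.31, 5.36 and 5.23 in siFAH cells, against 5.34, 5.56 and 5.58 in control cells (-0.19, adjusted p = 0.16). FANCL, its catalytic subunit, had -0.13 (adjusted p = 0.32) and FANCE had -0.08 (adjusted p = 0.646). FANCG had -0.05 (adjusted p = 0.722), and FANCF, the only measured member whose probe set was dim (a mean log2 signal under 4.991, the median of all probe sets, in both groups), had means of 4.95 in siFAH cells and 4.96 in control cells. All these subunits overlapped between groups. The median over the 8 genes was -0.161.

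Mismatch repair held the gene with the largest change of the 39. EXO1, the exonuclease that removes the mismatched strand and also resects broken ends, had 6.95, 7.05 and 7.11 on the siFAH arrays, against 7.34, 7.42 and 7.52 on the control arrays. All siFAH arrays were well below all control arrays, and EXO1 fell by 23.8% (log2 fold change -0.39, standard error 0.08, adjusted p = 0.0121). This was the only member whose call held without each of the 6 arrays in turn (adjusted p from 0.0134 to 0.048), and it was lost only with the methods' t-test (0.122).

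The mismatch recognition subunits did not pass the test. MSH6, which recognizes base mismatches, had 7.07, 7.14 and 7.04 in siFAH cells, against 7.24, 7.20 and 7.35 in control cells. Its groups did not overlap, with a difference of -0.18 (standard error 0.07, adjusted p = 0.138). MSH3, which recognizes loops, had -0.11 (adjusted p = 0.393). PMS2, which nicks the strand to be corrected, had 6.87, 6.95 and 6.93 in siFAH cells, against 6.93, 7.04 and 7.29 in control cells (-0.16, adjusted p = 0.288). PMS2 has near-identical pseudogene copies whose transcripts its probes may also read, so its value is uncertain. The median over the 4 genes was -0.171.

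End joining had 3 of its 6 genes lower, XRCC4, PRKDC and POLQ, where 6.38% of all genes were lower. XRCC4, the scaffold of the ligase that seals ends, had 5.60, 5.79 and 5.58 on the siFAH arrays, against 5.84, 5.98 and 6.05 on the control arrays. The highest siFAH array lay just under the lowest control array, and XRCC4 fell by 18.8% (log2 fold change -0.30, standard error 0.08, adjusted p = 0.0464). PRKDC, the DNA-dependent protein kinase that binds ends with Ku, had 9.15, 9.10 and 9.03 in siFAH cells, against 9.33, 9.31 and 9.52 in control cells. It fell by 18.6% (-0.30, standard error 0.08, adjusted p = 0.0396), with control replicate 3 the highest array. POLQ, the polymerase of the alternative pathway that joins ends through short homologies, had 5.92, 5.81 and 5.87 in siFAH cells, against 6.08, 6.08 and 6.28 in control cells. It fell by 17.5% (-0.28, standard error 0.08, adjusted p = 0.0487).

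Each of these 3 calls was lost in fits that left out 1 array. POLQ was not called without any of the 6 arrays (adjusted p from 0.0505 to 0.147) or after cyclic loess (0.054). XRCC4 was lost without siFAH replicate 1 or 3 or control siRNA replicate 2 or 3 (0.114 to 0.155), and PRKDC without each array except control siRNA replicate 1 (0.0548 to 0.137), after quantile normalization (0.0511) and after cyclic loess (0.0756).

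The other end joining genes were not called. The Ku subunit XRCC6 had 8.56, 8.36 and 8.42 in siFAH cells, against 8.63, 8.68 and 8.60 in control cells, without overlap (-0.19, standard error 0.07, adjusted p = 0.137). Its partner XRCC5 had -0.05 (95% interval -0.20 to 0.09), and after cyclic loess 0.02. LIG4, the ligase that XRCC4 stabilizes, had 6.73, 6.85 and 6.74 in siFAH cells, against 6.74, 6.75 and 6.75 in control cells. Its difference was 0.03 (95% interval -0.12 to 0.17), against -0.30 for XRCC4. The median over the 6 genes was -0.232.

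**Figure D2:**
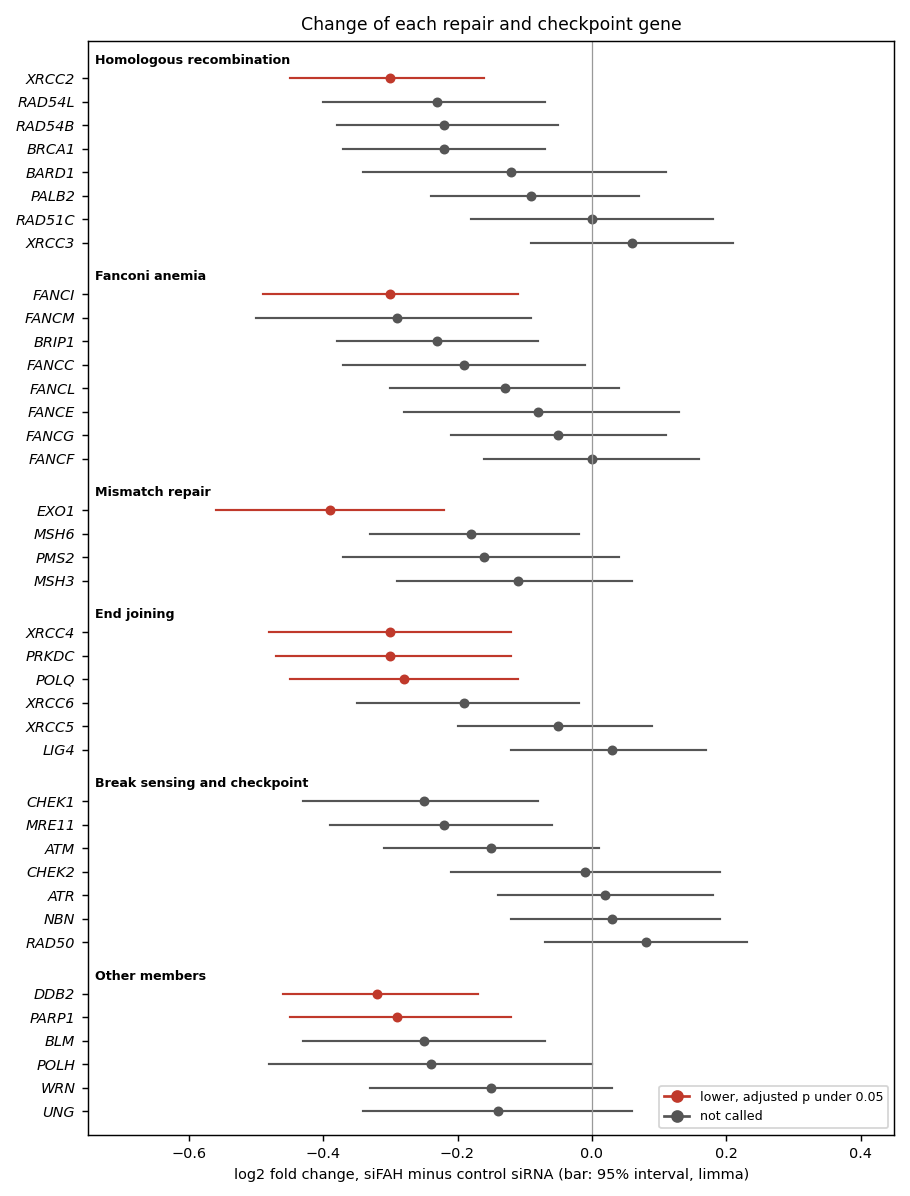
Log2 fold change of each measured gene, siFAH minus control siRNA (horizontal axis), with its 95% interval from limma, in red where the adjusted p is under 0.05. The 8 red genes lie between -0.39 and -0.28, the break sensing and checkpoint group has none, and no gene has an interval above 0.

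No break sensing or checkpoint gene of 7 was called, where 6.38% of all genes were lower and 3.48% higher. CHEK1, the kinase through which ATR slows the cell cycle, had 6.90, 6.93 and 7.07 on the siFAH arrays, against 7.11, 7.24 and 7.32 on the control arrays. The groups did not overlap, and the difference of -0.25 (standard error 0.08) had an adjusted p of 0.0717. CHEK2, the kinase downstream of ATM, had 4.86, 5.05 and 5.22 in siFAH cells, against 5.07, 5.0 and 5.08 in control cells. The siFAH arrays spanned the control arrays on both sides, and the difference of -0.01 had a 95% interval from -0.21 to 0.19. CHEK2 has near-identical pseudogene copies, which its probes may also read.

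The kinases that act above them were not called either. ATM had 7.05, 7.03 and 6.91 in siFAH cells, against 7.18, 7.05 and 7.21 in control cells (-0.15, adjusted p = 0.231), where the nearest arrays of the groups were alike to 2 decimals. ATR had 0.02 (95% interval -0.14 to 0.18), which became -0.04 with each array centred on its median.

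The complex of MRE11, RAD50 and NBN, which binds broken ends and activates ATM, had differences of both signs, none of them called. MRE11, its nuclease, had 6.02, 6.24 and 6.11 in siFAH cells, against 6.39, 6.30 and 6.36 in control cells, without overlap (-0.22, standard error 0.08, adjusted p = 0.0902). RAD50, its coiled ATPase, had 7.80, 7.84 and 7.80 in siFAH cells, against 7.68, 7.69 and 7.83 in control cells (0.08, adjusted p = 0.506). NBN, the subunit that recruits ATM, had 0.03 (95% interval -0.12 to 0.19), and -0.02 with each array centred on its median. The median over the 7 genes was -0.00621.

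Among the 6 remaining genes, DDB2 and PARP1 were lower, where 6.38% of all genes were. DDB2, which finds ultraviolet damage for nucleotide excision repair and is a known target of p53, had 7.39, 7.34 and 7.34 on the siFAH arrays, against 7.67, 7.64 and 7.72 on the control arrays. Its arrays were close together in each group (SD 0.03 in siFAH cells and 0.04 in control cells, n = 3 each), and it fell by 19.7% (log2 fold change -0.32, standard error 0.06, adjusted p = 0.0156). The call was lost without siFAH replicate 2 (0.0617) or siFAH replicate 3 (0.0587). PARP1, which marks strand breaks with chains of ADP-ribose, had 7.90, 7.85 and 7.81 in siFAH cells, against 8.13, 8.05 and 8.24 in control cells. It fell by 18.0% (-0.29, standard error 0.07, adjusted p = 0.0355), which no fit without 1 of the 6 arrays called (0.0521 to 0.122), after quantile normalization (0.0765) and after cyclic loess (0.0892).

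The helicases and the other base damage genes did not pass. BLM, the helicase that dissolves recombination intermediates, had 6.44, 6.34 and 6.24 in siFAH cells, against 6.59, 6.49 and 6.69 in control cells. Its groups did not overlap (-0.25, standard error 0.08, adjusted p = 0.0786), whereas its relative WRN overlapped (-0.15, adjusted p = 0.268). POLH, the polymerase that copies past ultraviolet lesions, had 6.23, 5.94 and 5.88 in siFAH cells, against 6.17, 6.15 and 6.45 in control cells. Its siFAH replicate 1 lay within the control range (-0.24, standard error 0.11, adjusted p = 0.195). UNG, which removes uracil from DNA, had -0.14 (adjusted p = 0.367). The median over the 6 genes was -0.244.

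Set side by side, the group medians were -0.232 for end joining, -0.171 for mismatch repair, -0.169 for homologous recombination, -0.161 for the Fanconi anemia pathway and -0.00621 for break sensing and checkpoint. The called share was 3 of 6, 1 of 4, 1 of 8, 1 of 8 and 0 of 7 in the same order, where 6.38% of all genes were called lower, so a count of 0 or 1 in groups of this size is close to that share. The groups hold few genes and their ranges overlap: the end joining genes ran from -0.30 to 0.03 and the checkpoint genes from -0.25 to 0.08. The differences between groups were not tested.

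**Figure D3:**
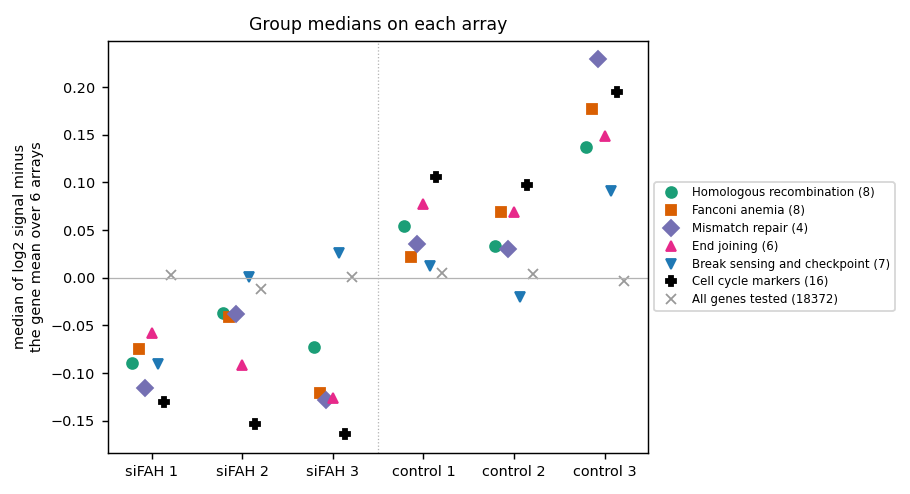
Median, over the genes of each group, of the log2 signal minus the gene's mean over 6 arrays (vertical axis), on each siFAH and control siRNA array, with 16 cell cycle markers and all 18372 genes for scale. Control replicate 3 is the highest array for 5 pathway groups, reaching 0.229 for mismatch repair, while the median of all genes stays between -0.012 and 0.005.

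The spread between arrays bore on these results. The median of the 39 genes, each centered on its own mean, was -0.081, -0.044 and -0.116 on the siFAH arrays, against 0.043, 0.051 and 0.166 on the control arrays. The siFAH arrays were alike in how many members lay below all control arrays (27, 25 and 28, where 30.8%, 33.9% and 34% of all genes did). Control replicate 3 was the highest of the 6 arrays for 27 of 39 members, and the share of all genes for which it was highest was not counted. Over all probe sets this array had the highest upper quartile (6.4779) and the lowest median (4.9217) of the 6. Without it 2 members were called lower, EXO1 and DDB2, with a median difference over the 39 of -0.137, and 2.38% of all genes were lower in that fit, against 6.38% with all arrays. Without control replicate 2, siFAH replicate 1, siFAH replicate 2 or siFAH replicate 3 there were 2, 3, 2 and 2 called lower, where 2.57%, 5.16%, 2.39% and 2.12% of all genes were. Without control replicate 1 there were 8, where 6.49% of all genes were. Except in that last fit, calls fell over all genes as well as among the members.

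Most of these genes also have bright probe sets, and bright probe sets read lower overall in the siFAH arrays. Of the 39, 28 lay in the 4 brightest of 10 equal bins of all genes tested, where 12.6% of all genes were called lower with a median of -0.0719. The 28 had a median of -0.205, and 7 of them were called lower. The part of signal level in the counts was not tested.

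The wider repair pathways held other genes that were called. Of 94 measured genes of the same and neighboring pathways that are not among the 42, 10 were lower (10.6%) and 2 higher (2.13%), where 6.38% of all genes were lower and 3.48% higher, and the median was -0.0966. The largest decrease was in NEIL3, a glycosylase that removes oxidized bases and unhooks crosslinks. It had 6.02, 5.94 and 6.01 on the siFAH arrays, against 6.40, 6.64 and 6.72 on the control arrays. NEIL3 was far below on every siFAH array (difference -0.59, standard error 0.09, adjusted p = 0.00382), and the call held without each of the 6 arrays in turn. Of 16 base excision repair genes PARP2, a relative of PARP1, was the other lower gene (-0.28, adjusted p = 0.0339, but 0.0621 to 0.117 without control siRNA replicate 2 or 3 or any siFAH replicate, after quantile normalization and after cyclic loess). APEX1, which cuts at sites that have lost a base, had -0.32 (adjusted p = 0.0837).

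Among 16 other checkpoint genes 4 were lower (25%), where 6.38% of all genes were. The 0 of the 7 described above is close to that share. USP28, a deubiquitinase of the checkpoint, had 6.48, 6.47 and 6.46 in siFAH cells, against 6.76, 6.91 and 7.08 in control cells. Its siFAH arrays were nearly identical and its control arrays were spread (-0.44, standard error 0.08, adjusted p = 0.0118), and no single array carried the call. TOPBP1, the activator of ATR, had 7.50, 7.55 and 7.49 in siFAH cells, against 7.83, 7.80 and 7.96 in control cells (-0.35, adjusted p = 0.0137, and 0.0541 without siFAH replicate 3). TIMELESS, which protects stalled forks, had -0.36 (adjusted p = 0.0382, and 0.0773 to 0.137 without siFAH replicate 2 or 3 or control siRNA replicate 2 or 3). The fourth was RNF168, a ubiquitin ligase at breaks, with -0.313 (adjusted p = 0.026), named after its value was seen. The difference between these 16 genes and the 7 was not tested.

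Of 10 other Fanconi anemia genes 3 were lower (30%), where 6.38% of all genes were. RFWD3, a ubiquitin ligase of crosslink repair, had 7.61, 7.48 and 7.52 in siFAH cells, against 7.81, 7.90 and 8.14 in control cells (-0.41, standard error 0.09, adjusted p = 0.0191). USP1, which removes ubiquitin from FANCD2, had -0.31 (adjusted p = 0.0311) and SLX4, the scaffold of nucleases that cut crosslinks, had -0.29 (adjusted p = 0.0219). None of the 3 held in every fit that left out 1 array: without siFAH replicate 2 or 3 or control siRNA replicate 2 or 3 their adjusted p ran from 0.0504 to 0.109, and SLX4 also had 0.0612 without siFAH replicate 1. USP1 had 0.0598 after cyclic loess.

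The 2 higher genes stood in recombination and nucleotide excision repair. SEM1, a small acidic protein that binds BRCA2 and is also a subunit of the proteasome, had 9.96, 10.15 and 10.35 in siFAH cells, against 9.80, 9.82 and 9.65 in control cells. It rose without overlap (0.40, standard error 0.10, adjusted p = 0.0339), and was the only called gene of 17 others in recombination. The nearest to it in size were EME1, a nuclease subunit that cuts recombination intermediates (-0.25, adjusted p = 0.0825), and SWI5 (0.23, adjusted p = 0.163). GTF2H5, the smallest subunit of the repair and transcription factor TFIIH, had 6.06, 6.09 and 6.29 in siFAH cells, against 5.90, 5.83 and 5.76 in control cells (0.31, standard error 0.08, adjusted p = 0.0355, and 0.0515 with each array centred on its median). Of the same 15 excision repair genes, ERCC1, a subunit of the nuclease that cuts beside the lesion, was lower (-0.31, adjusted p = 0.0263, and 0.0625 after cyclic loess) and the TFIIH helicase ERCC3 had -0.29 (adjusted p = 0.0597). Without siFAH replicate 2 or 3 or control siRNA replicate 2 or 3, the adjusted p of SEM1 was 0.0717 to 0.12, that of GTF2H5 0.0745 to 0.127 and that of ERCC1 0.0588 to 0.103.

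The remaining lists, which are short, had no call, where 6.38% of all genes were lower and 3.48% higher. Of 7 other end joining genes, DCLRE1C, the nuclease that opens hairpin ends, had -0.32 (adjusted p = 0.053), LIG3 had -0.17 and NHEJ1 had -0.12. Of 11 genes of translesion synthesis and damage tolerance, the ubiquitin-conjugating enzyme UBE2B had 0.23 (adjusted p = 0.0784), the polymerase REV1 had -0.21 (adjusted p = 0.0853) and RAD18 had -0.15. The other measured mismatch repair genes, MLH3 and PMS1, both had -0.01.

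**Figure D4:**
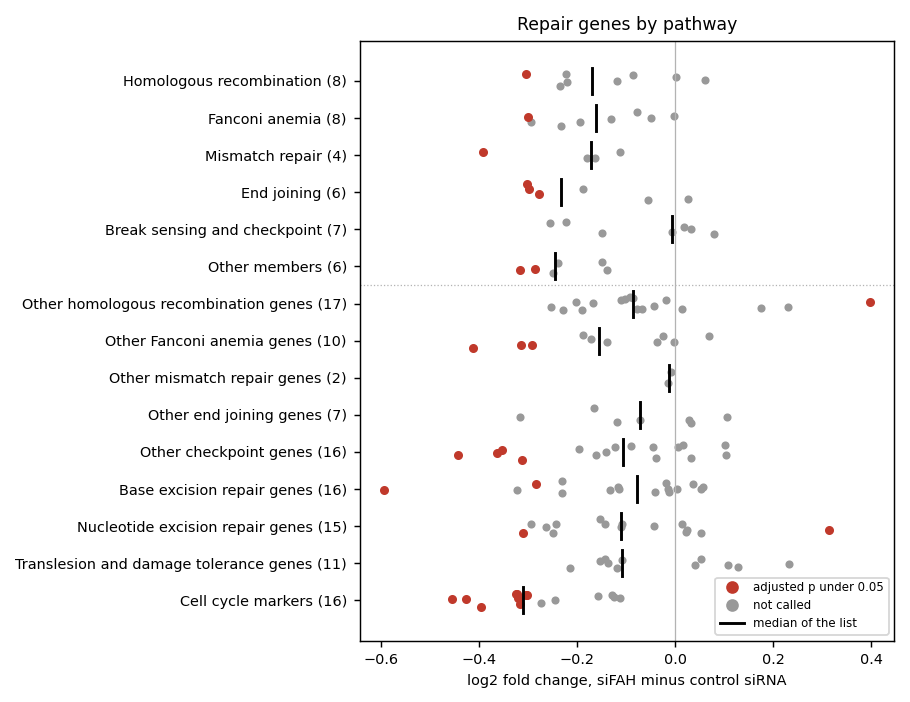
Log2 fold change of each measured gene, siFAH minus control siRNA (horizontal axis), for the 6 groups of the 39 genes (above the dotted line) and for other repair genes and cell cycle markers (below it), with the number of genes in parentheses. Red points have an adjusted p under 0.05 and black bars are medians, from -0.311 for the cell cycle markers to -0.00621 for break sensing and checkpoint.

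Markers of cycling cells moved with these genes. Of 16 genes of replication licensing, S phase and mitosis, 10 were lower (62.5%) and 0 higher, where 6.38% of all genes were lower and 3.48% higher. All 16 differences were negative, and the median was -0.311. MCM3, a subunit of the replicative helicase, had 7.70, 7.68 and 7.60 in siFAH cells, against 7.96, 8.04 and 8.35 in control cells (-0.46, adjusted p = 0.0185). The licensing factor CDC6 had -0.43 (adjusted p = 0.0176) and cyclin A (CCNA2) had -0.40 (adjusted p = 0.0117). Without siFAH replicate 2 or 3 the adjusted p of these 3 genes ran from 0.0502 to 0.0704. On single arrays the median of the 16 was -0.13, -0.153 and -0.164 in siFAH cells, against 0.106, 0.097 and 0.195 in control cells, so control replicate 3 was the highest here too. The part of these markers in the repair gene differences was not tested.

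The lineage of the samples was checked in the same arrays. SOX10, a melanocyte lineage factor, had 8.38, 8.41 and 8.30 in siFAH cells, against 8.59, 8.58 and 8.50 in control cells (-0.19, adjusted p = 0.0957). Of 7 measured melanocyte markers none was called. MLANA (0.26, adjusted p = 0.148), PMEL and TYR were dim in both groups, and S100A1 had 0.33 (adjusted p = 0.205). S100B had means of 7.32 in siFAH cells and 7.26 in control cells (0.07), and MITF had 6.57 and 6.6 (-0.03). DCT was not analysed here. Of 8 markers of keratinocytes, epithelia, leukocytes and endothelium none was called and 7 were dim. The exception was KRT14, a keratin, which had 5.63, 5.54 and 5.75 in siFAH cells, against 5.59, 5.23 and 5.32 in control cells (0.26, adjusted p = 0.118). PTPRC had 0.18 and CDH1 had 0.16, both at dim probe sets.

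Genes that start next to a repair gene on the opposite strand can share its promoter, and 10 measured members had such a measured neighbor within 1000 bases. BRCA1 was paired with NBR1, 82 bases from the 1 start of BRCA1 used here. Of the 10 neighbors 1 was called lower and 0 higher, where 6.38% of all genes were lower and 3.48% higher. Of their differences 6 were negative and 4 positive, where 48.6% of all genes were negative, so these counts are close to those shares. The differences ran from -0.38 for DESI1 beside XRCC6 (standard error 0.14, adjusted p = 0.111) to 0.17 for TMEM167A. TMEM167A, which starts 153 bases from XRCC4, had 0.17 (adjusted p = 0.186), against -0.30 for XRCC4. XPO5, which exports microRNA precursors and starts 147 bases from POLH, was lower (-0.33, standard error 0.08, adjusted p = 0.0375, but 0.0576 after cyclic loess and 0.0909 to 0.127 without siFAH replicate 2 or 3 or control siRNA replicate 2 or 3), against -0.24 for POLH. NPAT, a regulator of histone genes that starts 429 bases from ATM, had -0.25 (adjusted p = 0.079), against -0.15 for ATM. These neighbors were named after their values were seen.

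Calls among the 39 genes depended on the scaling and on the test. Over 16 other settings, 16 of the genes were called lower in at least 1 setting and 0 were called higher in any. The share of all genes called lower moved with them. With each array centred on its median 16 members were lower, where 9.13% of all genes were, and 16 were lower with dim genes left out (15.4% of all genes) and with SAM (10.3%). After cyclic loess 4 were lower, EXO1, DDB2, XRCC2 and XRCC4, where 4.86% of all genes were, and after quantile normalization 6 were lower, where 5.73% of all genes were. Centring also moved all genes: their median was -0.04917 under it, against 0.005021 as deposited, and the share of all calls that were lower was 80.1% under it, 56.2% after cyclic loess and 64.7% as deposited.

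**Figure D5:**
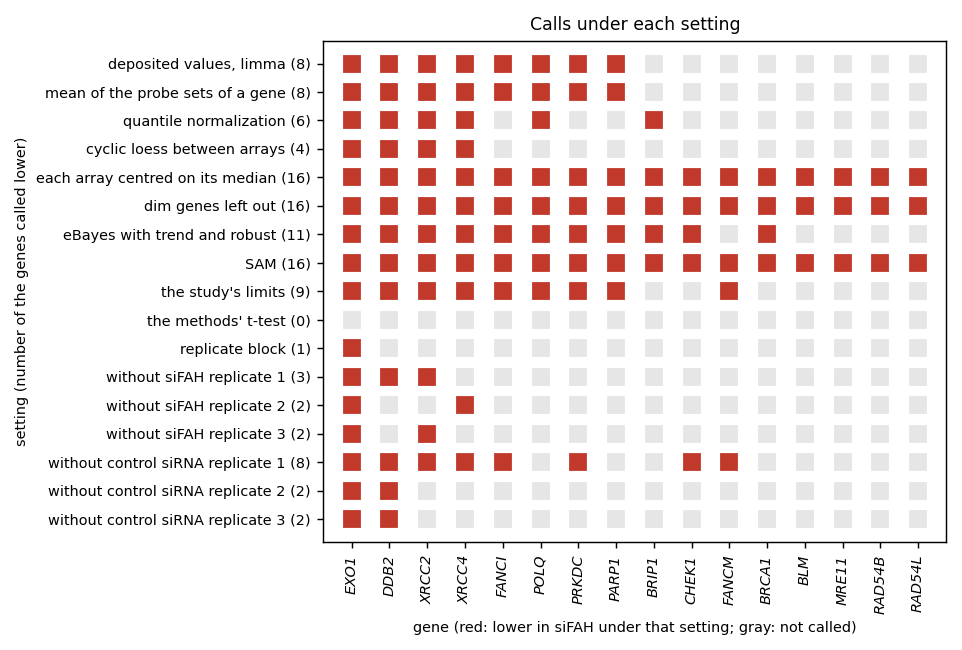
Calls of the 16 genes called lower in at least 1 setting (columns), under each setting (rows, with the number of the 39 genes called lower in parentheses), red where the gene was lower and gray where it was not called. EXO1 is red in every row but the methods' t-test, and the counts run from 0 for that test to 16.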

How the data were processed

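The deposited values were log2 signals of 28829 probe sets on 6 arrays, which the authors made by RMA (background correction, global scaling, then 1 summary value for each probe set). The version of RMA and the genome build are not given in the sources used here, and the sources differ on the RNA and labeling kits. Probe sets with exactly 1 symbol (19291) were kept, and those with several (1735) or none in the annotation used here (7803) were left out. The brightest probe set of each symbol gave 18372 genes. A gene was dim where its mean signal was under 4.991, the median of all probe sets, in both groups.

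Differences were fitted with lmFit and eBayes of limma 3.58.1 (R 4.3.3), without a replicate block, with two-sided p-values and the Benjamini-Hochberg adjustment across the 18372 genes, and the fit was tested on simulated data. Alternatives were quantile, median and cyclic loess scaling, leaving out dim genes, trend and robust variance, SAM, the methods' t-test, the study's limits, the mean of probe sets, a replicate block and leaving out each array. The members and lists were chosen with earlier results of these data known. Named genes were all members, FAH and the 3 genes with the largest change in each other list. Arrays have no read depth, and with 3 arrays in each group the smallest two-sided p of an exact permutation test is 0.1. The study's methods call the replicates biological, and its results describe transfection in triplicate, without naming separate cultures. The p-values therefore measure the spread between these samples. Promoters were read from RefSeq (GRCh38.p14), 1 per gene, so any other start of a gene, BRCA1 among them, was not searched for the motifs.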

Additional observations from a re-analysis of the deposited data

How the results depend on the processing

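The median difference of the 39 repair and checkpoint genes was negative in all settings, from -0.233 with each array centred on its median to -0.146 after cyclic loess, and from -0.209 to -0.137 as each array was left out, against -0.179 as deposited. No member was called higher in any setting. The count called lower, 8 as deposited, was 16 with SAM (10.3% of all genes lower), 16 with dim genes left out (38 tested, 15.4%) and 16 with median centring (9.13%). It was 11 with trend and robust variance (8.53% of all genes lower) and 4 after cyclic loess (4.86%). It was 0 with the methods' t-test, which called 0.0435% of all genes lower and so says nothing about the members. It ran from 2 to 8 as each array was left out (2.12% to 6.49%), against 6.38% of all genes as deposited. The cause of these shifts was not tested. Homologous recombination had 4 with SAM, dim genes left out or centring, 2 with trend and robust variance, 0 with the t-test and 0 to 1 without single arrays. Fanconi anemia had 3 with SAM, dim genes left out (7 tested) or centring, and 2 with trend and robust variance or the study's limits. It had 0 after cyclic loess or with the t-test and 0 to 2 without single arrays. Mismatch repair had 0 with the t-test. End joining had 1 after cyclic loess, 0 with the t-test and 0 to 2 without single arrays. Break sensing and checkpoint had 2 with SAM, dim genes left out or centring, 1 with trend and robust variance and 0 to 1 without single arrays. The other 6 members had 1 after quantile normalization or cyclic loess, 0 with the t-test and 0 to 1 without single arrays. Of the 94 other repair genes, 18 were lower with SAM, 17 with dim genes left out, 0 with the t-test and 2 to 13 without single arrays.

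Whether the replicate numbers pair the arrays is not given in the labels. Deviations of siFAH and control arrays with the same number correlated at -0.1552, -0.0891 and -0.2744. Those with different numbers correlated at -0.0923 to 0.2406. Such correlations cannot show whether the cells of 2 arrays were handled together. With the replicate block 1 member was lower, EXO1 (adjusted p = 0.0279), where 2.51% of all genes were, so homologous recombination, Fanconi anemia, end joining and the other 6 members had 0 each, and the 94 other repair genes had 4.

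Some differences near 0 turned sign. XRCC5 became 0.02 and PMS1 0.01 after cyclic loess, and PMS1 0.01 after quantile normalization. LIG4 became -0.03, NBN -0.02 and ATR -0.04 with centring. As each array was left out, FANCE ran from -0.16 to 0.02, LIG4 from -0.01 to 0.05, NBN from -0.01 to 0.09, ATR from -0.02 to 0.07, CHEK2 from -0.09 to 0.08, MLH3 from -0.06 to 0.03 and PMS1 from -0.05 to 0.07.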
